A study of Mus musculus with 19 samples.

Results

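Collagen genes were described in RNA-seq libraries of sorted retinal cells from mouse embryos at E16.5. A gene was taken as a collagen gene when its Ensembl identifier mapped, in the GRCm38 annotation, to a protein-coding gene whose symbol names a collagen chain, such as Col4a1. This gave 44 genes among the 47069 of the count tables, and 37 of them had enough reads to be tested. Collagens are proteins of the extracellular matrix in which 3 chains wind into a triple helix, and each gene codes for a chain. Fibrillar collagens form cables, collagen IV forms the net of basement membranes, and the FACIT collagens, multiplexins, transmembrane collagens and collagen VI decorate fibrils, join basement membranes to tissue or sit at the cell surface. In the developing eye, basement membrane collagens line the inner surface of the retina and its vessels, and collagens II, V, IX and XI form the fibrils of the vitreous.

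The study compared retinal ganglion cells (RGCs) whose axons stay on their side of the brain (iRGCs) with those whose axons cross the midline (cRGCs). Both came from embryos labelled as a C57/DBA F1 strain, wild type, with males and females pooled, that carried the CAG-[Stop]-Sun1-GFP cassette at Rosa26, a reporter that tags the nuclear envelope once Cre has removed its stop. The iRGC libraries were of GFP+ cells from embryos with Slc6a4-Cre, the ET33 transgene, which follows the serotonin transporter gene. The cRGC libraries were of GFP+ cells from embryos with Pou4f2-Cre, targeted into the Pou4f2 locus, after the ventrotemporal region of the retina was cut away. Cre marks a cell and its descendants for good, so GFP reports past as well as present activity of the driver. There were 3 libraries per population, and the number of embryos behind each was not given in the sources used here, so p-values measure the spread between libraries, which may be partly technical. The libraries held 28193178 to 33638083 reads on genes. Levels are CPM, counts per 1000000 of the library size scaled by TMM factors, and log2 fold changes are of iRGCs over cRGCs.

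The markers of the labelled cells did not all follow the labels. Slc6a4 itself had 2.06, 33.4 and 116 CPM in iRGC replicates 1, 2 and 3 and 48.1, 35.4 and 30.5 CPM in the cRGC replicates, and did not pass the test (log2 fold change 0.41, adjusted p = 0.768 by edgeR with Benjamini-Hochberg adjustment). Zic2, the transcription factor of iRGCs, was higher in iRGCs by 1.34 on the log2 scale (edgeR, Benjamini-Hochberg adjusted p = 0.000209). The summed level of 10 ganglion cell markers was 1870 to 3970 CPM in iRGC libraries and 9409 to 11744 CPM in cRGC libraries, and 9 of the 10 were lower in iRGCs. All 12 retinal progenitor markers were higher in iRGCs, with sums of 5922 to 7698 CPM against 686 to 1718 CPM, and the highest cRGC sum was in replicate 2. Markers of vessels were uneven, with 5 of 5 tested endothelial markers and 4 of 7 tested mural markers higher in iRGCs. For these and the other marker lists, the shares among all tested genes were 23.3% higher and 23.1% lower. The 9 endothelial markers other than Kdr summed to 76.0, 332 and 15.5 CPM in iRGC replicates 1, 2 and 3 and to 3.88, 5.18 and 4.07 CPM in the cRGC replicates. Cdh5, Tie1 and Eng had no read in the cRGC libraries, and Kdr, which was at 320.5 CPM or more in each iRGC library and at 67.6 CPM or more in each cRGC library, was left out of that sum. The 10 mural markers summed to 138, 279 and 121 CPM in iRGCs and 21.4 to 32.4 CPM in cRGCs, with Kcnj8 and Acta2 at 0 in the cRGC libraries. Notch3 alone had 113, 117 and 83.5 CPM in iRGCs and 17.1, 26.7 and 18.6 CPM in cRGCs, most of the mural sum in each library except iRGC replicate 2. The 7 ciliary margin markers, 4 of them higher in iRGCs, summed to 35.0, 175 and 20.6 CPM in iRGCs and 15.2 to 29.1 CPM in cRGCs. Most of the cRGC sum was Bmp7, at 1.25, 14.4 and 8.29 CPM in iRGCs and 11.9, 12.2 and 25.2 CPM in cRGCs. Bmp7 had no call and a log2 fold change of -1.04, whereas those of the other ciliary margin markers were all positive. Of the 10 fibroblast markers 3 were tested, and Fbln1 was the 1 that was higher in iRGCs, at 45.3, 67.9 and 58.2 CPM in iRGCs and 6.30, 15.6 and 8.87 CPM in cRGCs. The other 9 summed to 11.0, 18.8 and 5.55 CPM in iRGCs and 10.0, 7.07 and 7.71 CPM in cRGCs and overlapped between the populations, with Lum, Dcn, Foxc1, Twist1, Ogn and Mgp at 0 in the cRGC libraries. Pdgfra and Postn, the other 2 tested, had no call, with log2 fold changes of -0.60 and -1.20. Of the microglia markers 3 of 6 tested were higher in iRGCs, and the list summed to 13.3, 21.3 and 14.4 CPM in iRGCs and 0.577 to 4.00 CPM in cRGCs. Of the pigment epithelium markers 1 of 4 tested was higher, with sums of 8.29 to 10.5 CPM against 1.46 to 3.24 CPM. Neither of the 2 tested lens markers was called, and that list summed to 4.26 to 17.5 CPM against 1.46 to 3.32 CPM. Of the 2 tested astrocyte and optic stalk markers, none was higher and 1, Aldh1l1, was lower in iRGCs (log2 fold change -1.09; edgeR, Benjamini-Hochberg adjusted p = 0.0398). That list summed to 5.73, 7.91 and 6.24 CPM in iRGCs and to 9.57, 8.46 and 9.33 CPM in cRGCs. In bulk libraries, fewer cells of a type cannot be told apart from less RNA per cell.

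Of the 37 tested collagen genes, 12 were higher in iRGCs and 7 were lower, at an adjusted p under 0.1 (edgeR, Benjamini-Hochberg). Among the 15941 tested genes, 23.3% were higher and 23.1% were lower, so the share of collagen genes that was higher, 32.4%, lay above that of all genes and the share that was lower, 18.9%, lay below it. The median log2 fold change was 0.38 for collagen genes and -0.0031 for all tested genes. The differences were often large, since 18 of the 37 (48.6%) both passed the test and changed by more than 1 on the log2 scale, against 23.1% of all tested genes. Every iRGC library was above every cRGC library for 12 of the 37 (32.4%), against 27.1% of all tested genes. The reverse held for 10 of the 37 (27.0%), near the 28.2% of all tested genes. Reads on the 44 genes together came to 1552, 2571 and 1325 CPM in iRGC replicates 1, 2 and 3 and to 701, 782 and 536 CPM in the cRGC replicates. The 7 genes that were not tested were Col3a1, Col5a3, Col12a1, Col6a3, Col6a5, Col8a1 and Col8a2. A count of 0 allowed up to 0.0927 to 0.115 CPM, the level of 3 counts in a library, and covers counting error only.

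**Figure D1:**
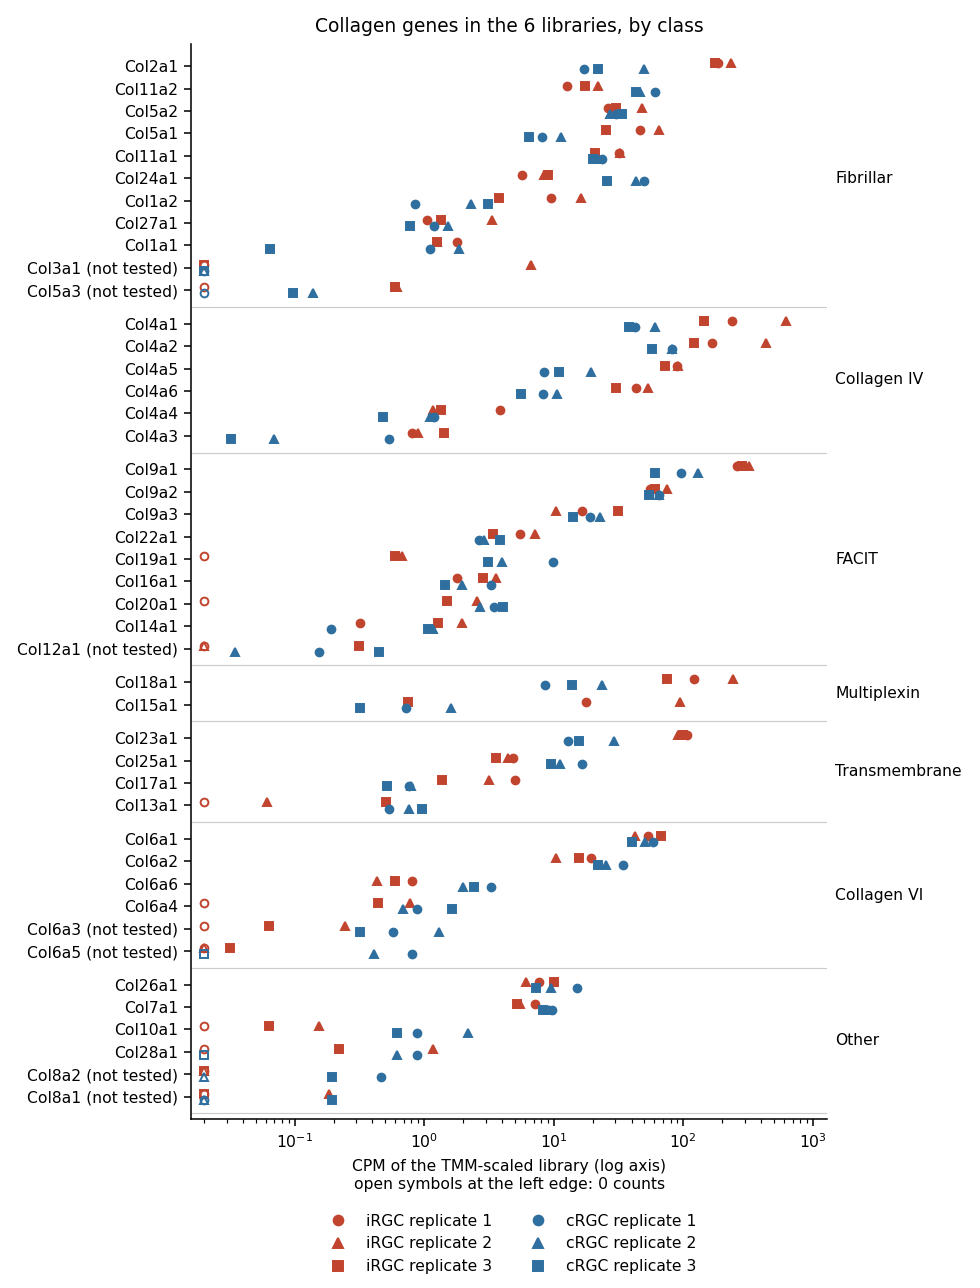
Level of each of the 44 collagen genes in each library, in CPM of the TMM-scaled library on a log axis, grouped by class, with 3 iRGC libraries in red and 3 cRGC libraries in blue and the replicate given by the symbol. Open symbols at the left edge are counts of 0, and in Col4a5, Col18a1, Col2a1 and Col23a1 the red symbols lie to the right of the blue ones without overlap.

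The collagen genes with the highest levels differed between the populations. Per kilobase of exon, the level that allows genes of unlike length to be compared, Col9a1 led in iRGCs with 57.3 ± 6.49 CPM per kb (SD, n = 3), before Col4a1 with 44.8 ± 33.6, Col4a2 with 36.5 ± 25.9, Col2a1 with 21.5 ± 3.27, Col18a1 with 20.8 ± 12.2 and Col9a2 with 20.6 ± 3.27 CPM per kb. Neighbours in that order, Col9a1 and Col4a1 included, differed by less than the larger of their SDs. In cRGCs the order began with Col9a2 at 19.9 ± 1.97 CPM per kb, followed by Col9a1 at 18.8 ± 6.83, Col6a1 at 11.3 ± 2.09, Col4a2 at 11.1 ± 2.16, Col11a2 at 7.31 ± 1.33 and Col4a1 at 6.33 ± 1.64 CPM per kb. Col9a2 and Col9a1 differed by less than the larger of their SDs there, as did Col6a1 and Col4a2, and Col11a2 and Col4a1. Col4a1, Col2a1 and Col18a1, which stood among the leading genes of iRGCs, had lower places in cRGCs, where the means of Col6a1 and Col11a2 stood above theirs.

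Collagen IV, the net-forming collagen of basement membranes, was higher in iRGCs for 4 of its 6 genes (66.7%, against 23.3% of all tested genes). The other 2 genes of collagen IV passed in neither direction. Its genes lie in 3 head-to-head pairs, and for the pair with the most reads the annotated starts overlap. Col4a1 (ENSMUSG00000031502) lies at chr8:11198423-11312826 on the minus strand of GRCm38 and Col4a2 (ENSMUSG00000031503) at chr8:11312805-11449287 on the plus strand, so that their first exons share 22 bases. Those bases are shown because both transcripts are annotated to start within them, and they stand in capitals between 4 flanking bases on each side, read on the plus strand at chr8:11312801-11312830 of GRCm38.p6 (sequence from RefSeq):
Col4a1 and Col4a2 starts: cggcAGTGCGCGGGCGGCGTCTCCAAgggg

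Col4a5 (ENSMUSG00000031274, chrX:141475385-141689234, plus strand) and Col4a6 (ENSMUSG00000031273, chrX:141165403-141474076, minus strand) also face away from each other, with 1308 bases between their starts. The bases just before each start, 216 and 250 of them, are shown because both genes were higher in iRGCs, as given after them. The GC box GGGCGG, the CCAAT box (its name gives its letters) and the TATA box TATAAA were searched on both strands, none of these motifs contains another, and their matches stand in capitals. The stretch of Col4a5 is chrX:141475169-141475384 and that of Col4a6 is chrX:141474077-141474326, both from RefSeq on GRCm38.p6, each read 5′ to 3′ on its gene's strand:
Col4a5: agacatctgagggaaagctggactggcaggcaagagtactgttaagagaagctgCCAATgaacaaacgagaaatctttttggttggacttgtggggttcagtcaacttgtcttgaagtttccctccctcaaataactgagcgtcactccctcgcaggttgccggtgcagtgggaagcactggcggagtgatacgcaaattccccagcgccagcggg
Col4a6: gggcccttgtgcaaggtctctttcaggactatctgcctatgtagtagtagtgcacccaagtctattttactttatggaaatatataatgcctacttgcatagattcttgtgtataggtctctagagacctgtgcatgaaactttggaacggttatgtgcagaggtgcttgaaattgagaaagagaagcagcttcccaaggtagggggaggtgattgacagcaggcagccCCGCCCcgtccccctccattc
The Col4a5 stretch holds CCAAT and the Col4a6 stretch holds GGGCGG on its other strand, and neither holds TATAAA. Of the 35 collagen genes in the RefSeq promoter table, 21 held GGGCGG, 13 held CCAAT and 5 held TATAAA in the 250 bases before the start RefSeq gives, against 32.7%, 33.85% and 12.4% of the 32851 promoters in that table. A collagen gene was counted when any of its promoters held the motif, whereas the percentages are of single promoters, so the units differ. The RefSeq window of Col4a5 runs past the annotated start used for the printed stretch, and Col4a5 is counted among the 21 for a GGGCGG that lies beyond that stretch.

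Col4a1 had 240.3, 619 and 145 CPM in iRGC replicates 1, 2 and 3 and 42.7, 61.2 and 38.0 CPM in the cRGC replicates. The iRGC libraries were above the cRGC libraries throughout, and iRGC replicate 2 was far above the other two. The log2 fold change was 2.82 ± 0.483 (SE; edgeR, Benjamini-Hochberg adjusted p = 0.00179), and 2.02 without iRGC replicate 2. Col4a2, which supplies the other chain of the same trimers, had 167, 438 and 121 CPM in iRGCs and 81.8, 82.1 and 57.3 CPM in cRGCs. It followed the same order among the iRGC libraries with a smaller gap to cRGCs. Its log2 fold change was 1.71 ± 0.425 (SE; edgeR, Benjamini-Hochberg adjusted p = 0.0113), and 0.96 without iRGC replicate 2, still past the threshold (edgeR, Benjamini-Hochberg adjusted p = 0.0101; 0.000265 to 0.0496 over its alternatives).

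Col4a5 and Col4a6, whose chains form trimers of their own, were steadier across the iRGC libraries. Col4a5 had 89.8, 91.6 and 72.0 CPM in iRGCs against 8.38, 19.6 and 11.1 CPM in cRGCs, for a log2 fold change of 2.70 ± 0.292 (SE; edgeR, Benjamini-Hochberg adjusted p = 0.000258). Col4a6 had 43.6, 53.5 and 30.5 CPM in iRGCs against 8.27, 10.6 and 5.62 CPM in cRGCs, for a log2 fold change of 2.38 ± 0.289 (SE; edgeR, Benjamini-Hochberg adjusted p = 0.000384). The populations did not overlap for either gene. Col4a3 and Col4a4, whose chains join Col4a5 in the basement membrane of the kidney glomerulus, stayed at or below 3.89 CPM in the 6 libraries and had no call (edgeR, Benjamini-Hochberg adjusted p = 0.19 and 0.278). Summed over the 6 genes, collagen IV stood at 76.7, 170 and 52.4 CPM per kb in iRGCs and at 20.5, 25.0 and 16.1 CPM per kb in cRGCs.

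The multiplexins, collagens of basement membrane zones that carry heparan or chondroitin sulfate, were both higher in iRGCs. Col18a1 (ENSMUSG00000001435, chr10:77052178-77166548), whose end piece is endostatin, had 120.5, 242 and 75.5 CPM in iRGC replicates 1, 2 and 3 and 8.65, 23.7 and 14.0 CPM in the cRGC replicates. No iRGC library came near the cRGC range. Its log2 fold change was 3.24 ± 0.480 (SE; edgeR, Benjamini-Hochberg adjusted p = 0.000896), and 2.66 without iRGC replicate 2. Col15a1 (ENSMUSG00000028339, chr4:47208161-47313167), found around vessels and muscle, had 17.9, 95.1 and 0.757 CPM in iRGCs and 0.730, 1.62 and 0.323 CPM in cRGCs. iRGC replicate 3 lay within the cRGC range, so the populations overlapped. The log2 fold change of Col15a1, 5.41 ± 1.41 (SE; edgeR, Benjamini-Hochberg adjusted p = 0.0144), rested on iRGC replicates 1 and 2, since it was -0.22 with replicate 3 as the lone iRGC library. Without iRGC replicate 2 it was 3.38, without cRGC replicate 2 it was 6.21, and with limma voom Col15a1 did not pass (Benjamini-Hochberg adjusted p = 0.445, with a range of 0.000328 to 0.931 over the alternatives).

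Nidogens and perlecan, which bind the collagen IV and laminin nets to each other, were higher in iRGCs as well. Of 4 basement membrane partners, 3 (75%) were higher in iRGCs and 1 (25%) was lower, against 23.3% and 23.1% of all tested genes. Nid1 had 24.9, 117 and 6.43 CPM in iRGC replicates 1, 2 and 3 and 0.538, 3.80 and 1.94 CPM in the cRGC replicates, for a log2 fold change of 4.55 ± 1.05 (SE; edgeR, Benjamini-Hochberg adjusted p = 0.00809). Nid2 had 5.76, 44.4 and 1.45 CPM in iRGCs and 0, 0.345 and 0.581 CPM in cRGCs, for a log2 fold change of 5.74 ± 1.38 (SE; edgeR, Benjamini-Hochberg adjusted p = 0.00967). Both nidogens were highest in iRGC replicate 2 and lowest among iRGCs in replicate 3, and without replicate 2 their log2 fold changes were 2.90 and 3.51. Without cRGC replicate 2 that of Nid1 was 5.30, and without cRGC replicate 3 that of Nid2 was 6.56. Neither nidogen passed with limma voom or with iRGC replicate 3 as the lone iRGC library, and their highest adjusted p over the alternatives was 0.201 and 0.422 (Benjamini-Hochberg). Hspg2, which codes for perlecan and was named after its values were seen, had 86.1, 217 and 43.5 CPM in iRGCs against 7.61, 16.8 and 10.4 CPM in cRGCs (log2 fold change 3.32, and 2.48 without iRGC replicate 2). Agrn, which codes for agrin, was the exception, with 704, 834 and 809 CPM in iRGCs and 1708, 1479 and 1794 CPM in cRGCs, and fell by 1.09 ± 0.117 on the log2 scale (SE; edgeR, Benjamini-Hochberg adjusted p = 0.000258).

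**Figure D2:**
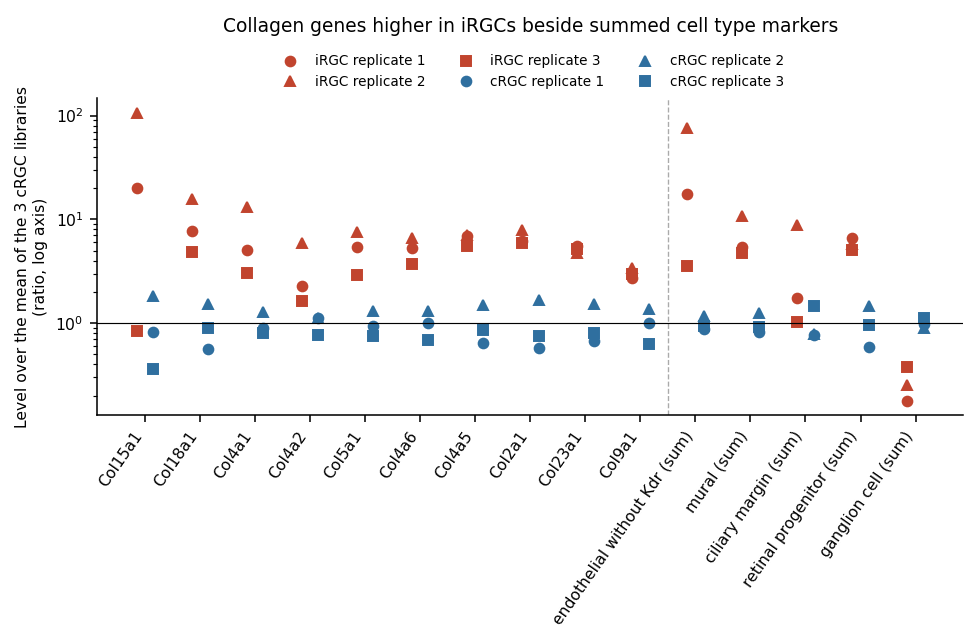
Level of 10 collagen genes higher in iRGCs, and of 5 summed marker lists, in each library as a ratio to the mean of the 3 cRGC libraries on a log axis, with iRGC libraries in red and cRGC libraries in blue. Col15a1 and the endothelial sum without Kdr spread most widely over the 3 iRGC libraries, whereas Col4a5, Col2a1, Col23a1, Col9a1 and the retinal progenitor sum lie close together.

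The iRGC libraries did not share the collagen difference evenly. Of the 12 collagen genes higher in iRGCs, 10 had their highest iRGC level in replicate 2, with Col17a1 and Col23a1 as the exceptions, whereas of all 3707 genes higher in iRGCs 29.4% did. Replicate 2 was at least 2 times replicate 3 for 7 of the 12, namely Col1a2, Col5a1, Col4a1, Col4a2, Col15a1, Col18a1 and Col17a1, against 6.74% of all genes higher in iRGCs. The same library had the highest endothelial, mural, ciliary margin, fibroblast, microglia, lens, and astrocyte and optic stalk sums among the iRGC libraries. The lens sum was 6.43, 17.5 and 4.26 CPM in iRGC replicates 1, 2 and 3. The progenitor and pigment epithelium sums were highest in iRGC replicate 1 and the ganglion cell sum in iRGC replicate 3. The part of any of those cells in the collagen levels was not tested. With replicate 3 as the lone iRGC library, whose spread is then assumed to be that of the cRGC libraries, 9 of the 12 still passed and Col1a2, Col15a1 and Col17a1 did not, and of all genes higher in iRGCs 70.2% still passed. In that fit the log2 fold change was 1.63 for Col4a1, 0.72 for Col4a2, 2.30 for Col18a1 and 1.56 for Col5a1. Col2a1, Col4a5, Col9a1 and Col23a1 moved less, at 2.58, 2.48, 1.60 and 2.37. Among the cRGC libraries, 11 of the 12 were highest in replicate 2, the library with the highest progenitor sum of the 3, with Col1a2 as the exception, against 54.4% of all genes higher in iRGCs. The part of progenitors in these levels was not tested.

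**Figure D3:**
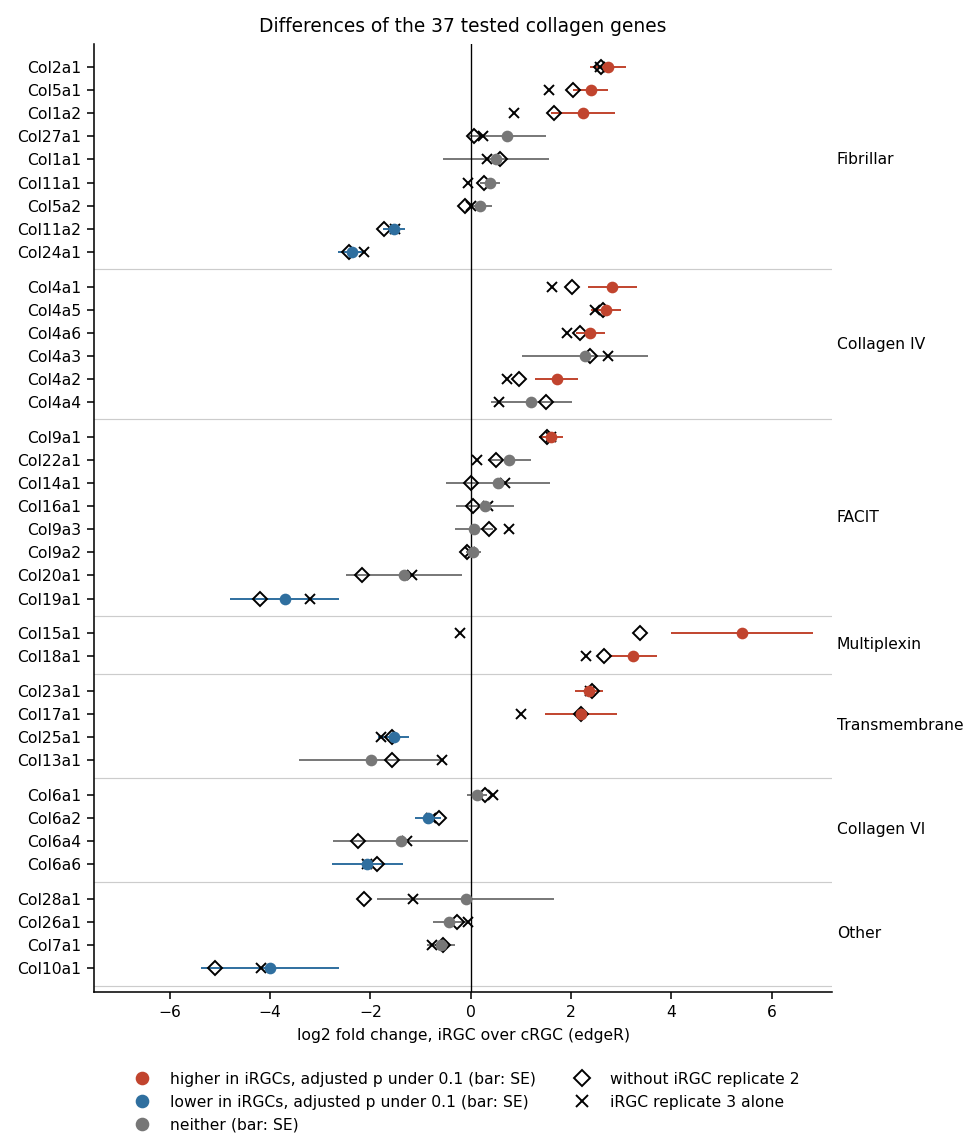
Log2 fold change of iRGCs over cRGCs for the 37 tested collagen genes with its SE as a bar, in red for genes higher and in blue for genes lower in iRGCs at an adjusted p under 0.1 and in grey for the rest. Diamonds give the value without iRGC replicate 2 and crosses the value with iRGC replicate 3 alone, which for Col15a1 is -0.22 instead of 5.41.

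Fibrillar collagens split by gene, with 3 of 9 tested genes higher in iRGCs, 2 lower and 4 in neither direction. The shares of 33.3% higher and 22.2% lower stood beside 23.3% and 23.1% of all tested genes, so the lower share was near the background. Col2a1 (ENSMUSG00000022483, chr15:97975602-98004695), the main fibril of cartilage and vitreous, had 186, 233 and 176 CPM in iRGC replicates 1, 2 and 3 and 17.3, 49.9 and 22.2 CPM in the cRGC replicates. The populations stood well apart and the iRGC libraries were close to each other. The log2 fold change of Col2a1 was 2.74 ± 0.360 (SE; edgeR, Benjamini-Hochberg adjusted p = 0.00052), and 3.34 without cRGC replicate 2. Col5a1, which starts fibrils and sets their width, had 46.3, 64.7 and 25.4 CPM in iRGCs and 8.07, 11.4 and 6.49 CPM in cRGCs, for a log2 fold change of 2.39 ± 0.352 (SE; edgeR, Benjamini-Hochberg adjusted p = 0.000861). Its partner chain Col5a2 had 26.4, 47.8 and 30.1 CPM against 30.5, 27.4 and 33.5 CPM, with no call and a log2 fold change of 0.19, which became -0.11 without iRGC replicate 2.

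Collagen I and III genes, typical of fibroblasts, were low in these libraries. Col1a2 had 9.62, 16.4 and 3.78 CPM in iRGCs and 0.846, 2.31 and 3.13 CPM in cRGCs, so that iRGC replicate 3 stood just above cRGC replicate 3. Its log2 fold change was 2.24 ± 0.629 (SE; edgeR, Benjamini-Hochberg adjusted p = 0.02), and 1.67 without iRGC replicate 2. Col1a1, whose chain joins that of Col1a2, had 1.80, 1.27 and 1.26 CPM in iRGCs and 1.11, 1.86 and 0.0645 CPM in cRGCs, with overlap and no call. Col3a1 had 218 counts in iRGC replicate 2 and 0 in the other 5 libraries, and it was not tested. Col1a2 and Col3a1 were thus highest in the library with the highest fibroblast sum, with or without Fbln1, and the part of fibroblasts in them was not tested.

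The fibrillar collagens lower in iRGCs were Col11a2 and Col24a1. Col11a2 (ENSMUSG00000024330, chr17:34039437-34066685), a chain of the thin fibrils of cartilage, had 12.7, 22.1 and 17.4 CPM in iRGC replicates 1, 2 and 3 and 60.7, 46.6 and 43.5 CPM in the cRGC replicates. Col24a1 (ENSMUSG00000028197, chr3:145292472-145552011), a collagen of developing bone and cornea, had 5.73, 8.44 and 9.05 CPM in iRGCs and 50.1, 43.6 and 26.0 CPM in cRGCs. For both genes the highest iRGC library lay below the lowest cRGC library. Col11a2 was lower in iRGCs with a log2 fold change of -1.53 ± 0.226 (SE; edgeR, Benjamini-Hochberg adjusted p = 0.00088). For Col24a1 the log2 fold change was -2.37 ± 0.287 (SE; edgeR, Benjamini-Hochberg adjusted p = 0.000381). As sums over the class, fibrillar collagens stood at 34.6, 47.2 and 31.3 CPM per kb in iRGCs and 23.6, 24.4 and 18.3 CPM per kb in cRGCs. Averaged over all 6 libraries Col2a1 made up 41.3% of the sum, but its part differed by population. In iRGCs it had 21.5 CPM per kb of a mean sum of 37.7. In cRGCs it had 3.22 of 22.1 CPM per kb, and Col11a2 led there with 7.31 CPM per kb.

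FACIT collagens, which bind to the surface of fibrils, held 1 gene higher and 1 lower in iRGCs among 8 tested, and the 2 lie next to each other with 9205 bases between them. Each direction thus held 12.5% of the tested FACIT genes, against 23.3% higher and 23.1% lower among all tested genes. Col9a1 (ENSMUSG00000026147, chr1:24177610-24252684), a chain of the collagen that coats collagen II fibrils, had 260.1, 325 and 286 CPM in iRGC replicates 1, 2 and 3 and 95.6, 129.9 and 60.6 CPM in the cRGC replicates. Its log2 fold change was 1.61 ± 0.243 (SE; edgeR, Benjamini-Hochberg adjusted p = 0.000974) with no overlap between the populations. The other chains of collagen IX did not follow. Col9a2 had 56.0, 75.2 and 60.3 CPM in iRGCs against 64.9, 65.2 and 54.5 CPM in cRGCs, and Col9a3 had 16.6, 10.5 and 31.7 CPM against 19.2, 22.8 and 14.2 CPM. Both overlapped between the populations and had no call, with log2 fold changes of 0.05 and 0.06. With iRGC replicate 3 as the lone iRGC library, the log2 fold change of Col9a3 was 0.77. Col9a3, which shares 6.07% of its exon bases with Tcfl5, was the gene of this class with iRGC replicate 3 highest and replicate 2 lowest.

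Col19a1 (ENSMUSG00000026141, chr1:24261890-24587472), a FACIT collagen known from neurons, had 0, 0.680 and 0.599 CPM in iRGC replicates 1, 2 and 3 and 9.88, 3.97 and 3.10 CPM in the cRGC replicates. The populations did not overlap, and cRGC replicate 1 was the highest by a wide margin. The log2 fold change was -3.71 ± 1.09 (SE; edgeR, Benjamini-Hochberg adjusted p = 0.0244), and without cRGC replicate 1 it was -3.06 and did not pass (edgeR, Benjamini-Hochberg adjusted p = 0.124; 0.000277 to 0.124 over its alternatives). The 4 other tested FACIT genes stayed at or below 7.17 CPM in the 6 libraries and had no call.

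Transmembrane collagens, which cross the cell membrane and shed their outer part, included genes in each direction. Col23a1 (ENSMUSG00000063564, chr11:51289920-51583918) had 108, 90.7 and 99.2 CPM in iRGC replicates 1, 2 and 3 and 12.9, 29.4 and 15.7 CPM in the cRGC replicates. It was the most even of the higher genes among the iRGC libraries, and its log2 fold change was 2.36 ± 0.283 (SE; edgeR, Benjamini-Hochberg adjusted p = 0.000365). Col17a1, known from the anchors of epithelial cells, had 5.05, 3.18 and 1.39 CPM in iRGCs and 0.769, 0.794 and 0.516 CPM in cRGCs. Its log2 fold change of 2.20 ± 0.713 (SE; edgeR, Benjamini-Hochberg adjusted p = 0.0362) did not pass without iRGC replicate 1 or without cRGC replicate 3 (edgeR, Benjamini-Hochberg adjusted p = 0.101 and 0.112; 0.00516 to 0.569 over its alternatives). Col25a1 (ENSMUSG00000058897, chr3:130131501-130599877), a neuronal collagen needed for motor axons to enter muscle, had 4.86, 4.42 and 3.56 CPM in iRGCs and 16.49, 11.3 and 9.58 CPM in cRGCs. Every cRGC library was above every iRGC library, and the log2 fold change of Col25a1 was -1.54 ± 0.306 (SE; edgeR, Benjamini-Hochberg adjusted p = 0.00383). Col13a1, found at the junction of nerve and muscle, had at most 0.968 CPM in a library and no call.

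Collagen VI, which forms beaded filaments around cells, had no gene higher in iRGCs and 2 of 4 tested genes (50%) lower. Among all tested genes 23.3% were higher and 23.1% were lower. Col6a1 had 53.4, 42.8 and 67.0 CPM in iRGC replicates 1, 2 and 3 and 58.1, 51.0 and 40.0 CPM in the cRGC replicates, with overlap and a log2 fold change of 0.13. Col6a2, whose chain joins that of Col6a1 and which lies 85161 bases from it on chromosome 10, had 19.4, 10.4 and 15.6 CPM in iRGCs and 34.5, 25.2 and 22.2 CPM in cRGCs. It was lower in iRGCs with a log2 fold change of -0.85 ± 0.266 (SE; edgeR, Benjamini-Hochberg adjusted p = 0.0317), and without cRGC replicate 1 it was -0.65 and did not pass (edgeR, Benjamini-Hochberg adjusted p = 0.13; 0.0135 to 0.13 over its alternatives). Col6a6 had 0.804, 0.433 and 0.599 CPM in iRGCs and 3.27, 2.00 and 2.42 CPM in cRGCs, for a log2 fold change of -2.06 ± 0.705 (SE; edgeR, Benjamini-Hochberg adjusted p = 0.0449). This call was lost without iRGC replicate 2, cRGC replicate 1 or cRGC replicate 3 (edgeR, Benjamini-Hochberg adjusted p = 0.109, 0.158 and 0.122; 0.00559 to 0.158 over its alternatives). The whole class summed to 14.6, 11.2 and 17.3 CPM per kb in iRGCs and 18.0, 15.1 and 12.3 CPM per kb in cRGCs, and the populations overlapped.

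Among the collagens outside these classes, 1 of 4 tested genes (25%) was lower in iRGCs, near the 23.1% of all tested genes, and none was higher. Col10a1, the collagen of cartilage cells about to turn to bone, had 0, 5 and 2 counts in iRGC replicates 1, 2 and 3 and 23, 63 and 19 counts in the cRGC replicates. Its counts were small in each library and the populations did not overlap. The log2 fold change was -4.00 ± 1.38 (SE; edgeR, Benjamini-Hochberg adjusted p = 0.0464), was -5.09 without iRGC replicate 2 and did not pass without cRGC replicate 2 or iRGC replicate 3 (edgeR, Benjamini-Hochberg adjusted p = 0.236 and 0.125; 0.00597 to 0.236 over its alternatives). Col7a1, the anchoring fibril of skin, had 7.14, 5.50 and 5.23 CPM in iRGCs and 9.69, 9.15 and 8.23 CPM in cRGCs. The populations did not overlap, but Col7a1 did not pass (log2 fold change -0.60; edgeR, Benjamini-Hochberg adjusted p = 0.121), except without iRGC replicate 1 (-0.75; edgeR, Benjamini-Hochberg adjusted p = 0.0631). Col26a1 overlapped, with 7.65, 6.12 and 10.2 CPM in iRGCs and 15.2, 9.59 and 7.29 CPM in cRGCs.

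The 7 collagen genes lower in iRGCs were Col11a2, Col24a1, Col19a1, Col25a1, Col6a2, Col6a6 and Col10a1. In each of them every cRGC library was above every iRGC library, as in 97.9% of the 3688 genes lower in iRGCs. Replicate 1 was the highest cRGC library for 6 of the 7, with Col10a1 as the exception, against 49.2% of all genes lower in iRGCs. With iRGC replicate 3 as the lone iRGC library 5 of the 7 passed and Col6a6 and Col10a1 did not, against 70.3% of all genes lower in iRGCs. Without cRGC replicate 1 the number of lower collagen genes went from 7 to 4.

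The ratio of a collagen gene to its partner within a library does not depend on library size, and 4 pairs of the same trimer had enough counts (at least 10 in every library). There were 1.92, 1.34 and 1.51 reads of Col4a2 for each read of Col4a1 in the cRGC replicates 1, 2 and 3, and 0.695, 0.707 and 0.833 in the iRGC replicates. The excess of Col4a2 in cRGCs thus gave way to an excess of Col4a1 in iRGCs, iRGC replicate 3 included, for a pair whose starts overlap. Col4a6 to Col4a5 was 0.486, 0.584 and 0.424 in iRGCs and 0.986, 0.542 and 0.506 in cRGCs, with overlap. Col6a2 to Col6a1 was 0.364, 0.244 and 0.233 in iRGCs and 0.594, 0.495 and 0.556 in cRGCs, and Col9a3 to Col9a1 was 0.0638, 0.0323 and 0.111 in iRGCs and 0.201, 0.176 and 0.235 in cRGCs. For these 2 pairs, as for Col4a2 to Col4a1, every iRGC ratio was below every cRGC ratio. The exact permutation test, two-sided, gave p = 0.1 for these 3 pairs, the smallest that 3 libraries against 3 allow, and p = 0.4 for Col4a6 to Col4a5 (0.133 and 0.4 after Benjamini-Hochberg adjustment over the 4 pairs).

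**Figure D4:**
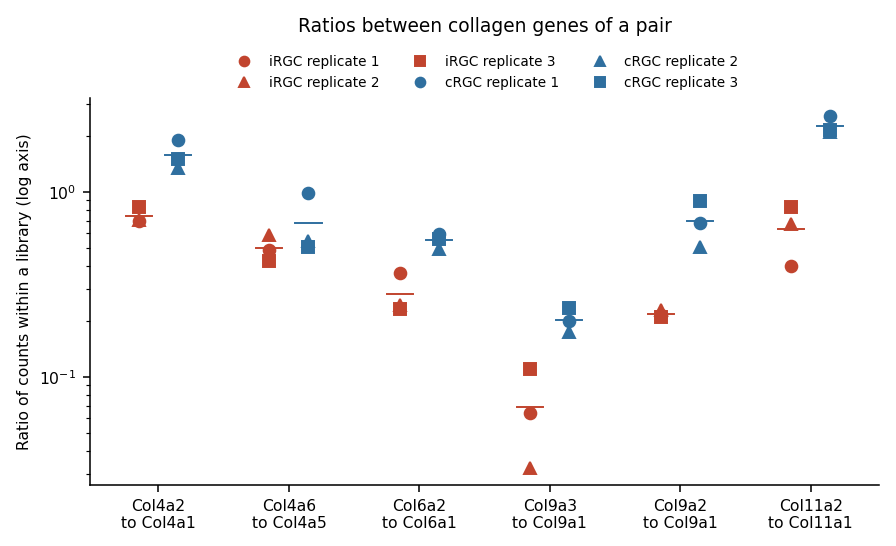
Ratio of the counts of 2 collagen genes within each library on a log axis, with iRGC libraries in red, cRGC libraries in blue and a line at the mean of 3 libraries. In every pair except Col4a6 to Col4a5 the 3 iRGC ratios lie below the 3 cRGC ratios. Col9a2 to Col9a1 and Col11a2 to Col11a1 were chosen after their values were seen, and both collagen IX ratios are to Col9a1.

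Collagens IX and XI also differed by chain in 2 ratios that were chosen after their values were seen. Col9a2 to Col9a1 was 0.215, 0.231 and 0.211 in iRGC replicates 1, 2 and 3 and 0.679, 0.502 and 0.899 in the cRGC replicates. Col11a2 to Col11a1 was 0.399, 0.674 and 0.828 in iRGCs and 2.58, 2.11 and 2.15 in cRGCs. The reads of collagen IX and XI thus came with a larger share of Col9a1 and Col11a1 in iRGCs in each library. The gene called differed, since Col9a1 was higher in iRGCs whereas Col11a2 was lower. Col11a1 had 31.9, 32.7 and 21.0 CPM in iRGCs and 23.5, 22.1 and 20.2 CPM in cRGCs. It had no call (log2 fold change 0.38; edgeR, Benjamini-Hochberg adjusted p = 0.173). Ratios of Col1a2 to Col1a1 and of Col5a2 to Col3a1 were not used, as the lower gene had 2 and 0 counts in a library.

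Genes that build collagens were next. Of 19 genes that modify and fold collagen chains in the endoplasmic reticulum, 9 (47.4%) were higher in iRGCs, none was lower and 10 were in neither direction. Among all tested genes 23.3% were higher and 23.1% were lower. The median log2 fold change of the 19 genes was 0.41. Fkbp10, a collagen chaperone, had 11.4, 23.7 and 9.77 CPM in iRGC replicates 1, 2 and 3 and 1.00, 3.18 and 1.55 CPM in the cRGC replicates, for a log2 fold change of 2.97 ± 0.519 (SE; edgeR, Benjamini-Hochberg adjusted p = 0.002). Plod1, which hydroxylates lysines, had 14.6, 28.0 and 16.2 CPM in iRGCs and 2.73, 4.11 and 1.71 CPM in cRGCs, for a log2 fold change of 2.78 ± 0.398 (SE; edgeR, Benjamini-Hochberg adjusted p = 0.000755). Both were highest in iRGC replicate 2 and neither overlapped between the populations, and the log2 fold change of Fkbp10 was 3.56 without cRGC replicate 2.

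Of 15 tested genes for export, processing and crosslinking, 7 (46.7%) were higher in iRGCs and 1 (6.67%) was lower. The shares among all tested genes were 23.3% and 23.1%, and the list had a median log2 fold change of 1.24. Sparc, a chaperone of collagen IV outside the cell, had 143, 292 and 118 CPM in iRGC replicates 1, 2 and 3 and 9.80, 29.0 and 18.5 CPM in the cRGC replicates. It kept to the order of Col4a1 among the iRGC libraries, and its log2 fold change was 3.27 ± 0.448 (SE; edgeR, Benjamini-Hochberg adjusted p = 0.000623). Loxl3, a lysyl oxidase that crosslinks fibrils, had 13.9, 15.1 and 9.96 CPM in iRGCs and 0.308, 3.24 and 0.807 CPM in cRGCs, for a log2 fold change of 3.15 ± 0.721 (SE; edgeR, Benjamini-Hochberg adjusted p = 0.00771) that was 4.53 without cRGC replicate 2. Pcolce2, which speeds the trimming of procollagen, was lower, with 1.09, 1.05 and 0.788 CPM against 3.04, 2.24 and 2.81 CPM (log2 fold change -1.46 ± 0.616, SE; edgeR, Benjamini-Hochberg adjusted p = 0.0931). Its call was lost without any library except iRGC replicate 1, at adjusted p-values of 0.149 to 0.23 (edgeR, Benjamini-Hochberg), and it reached from 0.0173 to 0.243 over its alternatives.

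**Figure D5:**
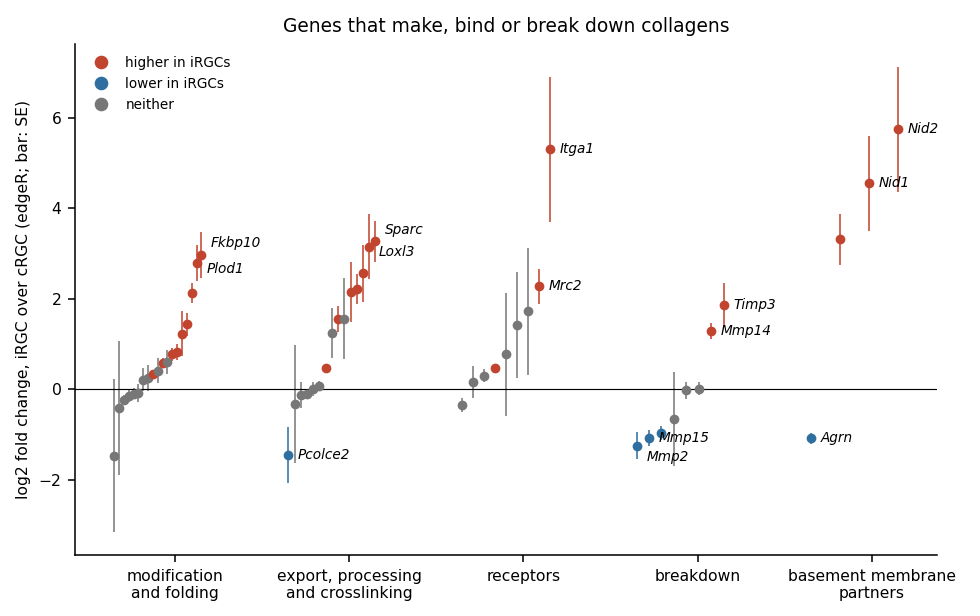
Log2 fold change of iRGCs over cRGCs with its SE for the tested genes of 5 lists, for modification and folding, for export, processing and crosslinking, for receptors, for breakdown and for basement membrane partners, in red for genes higher in iRGCs, in blue for genes lower and in grey for the rest. In the list for modification and folding 9 of 19 genes are red and none is blue, and the breakdown list has 2 red and 3 blue genes.

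Of 9 tested receptors for collagens, 3 (33.3%) were higher in iRGCs, 0 were lower and 6 (66.7%) were in neither direction. For all tested genes the shares were 23.3% higher, 23.1% lower and 53.6% in neither direction. Receptors had a median log2 fold change of 0.77, against -0.0031 over all tested genes. Itga1, an integrin chain that binds collagen IV, had 0.804, 17.1 and 0.473 CPM in iRGC replicates 1, 2 and 3 and 0.231, 0 and 0.226 CPM in the cRGC replicates. Its log2 fold change of 5.30 ± 1.59 (SE; edgeR, Benjamini-Hochberg adjusted p = 0.0271) rested on iRGC replicate 2, without which it was 2.04 and did not pass (edgeR, Benjamini-Hochberg adjusted p = 0.401; 0.00375 to 0.688 over its alternatives). Mrc2, which takes up collagen fragments, had 31.6, 37.6 and 25.7 CPM in iRGCs and 3.15, 10.2 and 6.26 CPM in cRGCs, for a log2 fold change of 2.27 ± 0.382 (SE; edgeR, Benjamini-Hochberg adjusted p = 0.00166). Ddr1, a collagen-binding receptor tyrosine kinase named after its values were seen, was at 398 to 470.0 CPM in iRGCs and 289 to 337 CPM in cRGCs (log2 fold change 0.46).

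Genes of collagen breakdown went in each direction, with 2 of 8 tested genes (25%) higher in iRGCs and 3 (37.5%) lower. The shares among all tested genes were 23.3% and 23.1%, so the higher share was near the background. Timp3, an inhibitor of metalloproteinases that shares 21.3% of its exon bases with Syn3, had 21.1, 25.5 and 74.9 CPM in iRGC replicates 1, 2 and 3 and 6.62 to 14.8 CPM in the cRGC replicates, for a log2 fold change of 1.86 ± 0.494 (SE; edgeR, Benjamini-Hochberg adjusted p = 0.0155). Without iRGC replicate 3, which was far above the other two, it was 1.06. Mmp14, a membrane-bound collagenase, had 113, 111 and 112 CPM in iRGCs and 33.5, 55.1 and 48.4 CPM in cRGCs, for a log2 fold change of 1.29 ± 0.175 (SE; edgeR, Benjamini-Hochberg adjusted p = 0.000595). Mmp2, a gelatinase that Mmp14 activates, was lower in iRGCs, with 7.94, 18.5 and 12.1 CPM against 34.1, 25.8 and 31.5 CPM and a log2 fold change of -1.24 ± 0.293 (SE; edgeR, Benjamini-Hochberg adjusted p = 0.00896). Mmp15, at 59.7, 75.5 and 92.1 CPM against 169, 139.6 and 171 CPM, had a log2 fold change of -1.08 ± 0.167 (SE; edgeR, Benjamini-Hochberg adjusted p = 0.00108). Mmp16, which was named after its values were seen, was the third of the lower genes, with a log2 fold change of -0.96. None of these genes overlapped between the populations.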

How the data were processed

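RNA of GFP+ cells sorted from E16.5 retinas was sequenced as 3 iRGC and 3 cRGC libraries. Per the study's methods, the authors aligned reads to mm10 with HISAT2, counted them on GRCm38 genes with HTSeq (versions 2.1.0 and 0.11.1 in the submitters' processing notes) and deposited raw counts per gene without normalization. The strand setting of the counting was not given in the sources used here, so reads shared with an overlapping gene cannot be told apart. Besides Col9a3 and Timp3 this holds, among others, for Loxl3, which shares 11.6% of its exon bases with Htra2. It also holds for Nid2 (8.45%, with Rtraf) and Fkbp10 (6.58%, with Nt5c3b). HTSeq's tallies of unassigned reads were left out, and reads on no gene were 12.3% to 23.2% of unique reads. The 13 ATAC-seq samples were not analysed here. Symbols, positions and exon lengths came from GENCODE M21 (GRCm38).

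Counts were tested with edgeR 4.0.16 in R 4.3.3 (filterByExpr, TMM, quasi-likelihood test without a block, Benjamini-Hochberg adjustment over 15941 genes, adjusted p under 0.1), which was tested on simulated data. The biological coefficient of variation was 36.3%. SEs were the absolute log2 fold change over the square root of F. Alternatives were DESeq2 1.42.0 and limma 3.58.1, other scalings, filters and thresholds, and libraries left out. Values in each library were given for the 2 genes of each class with the highest level per kb, the 2 with the largest called change, every lower gene and the fixed pairs, and for the 2 most changed genes in each direction of each partner list with a mean of at least 1 CPM. The collagen genes, lists and rules were chosen with earlier results of these data known.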

Additional observations from a re-analysis of the deposited data

How the results depend on the processing

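The number of collagen genes higher in iRGCs was 10 to 13 under the alternatives, against 12, and the number of lower ones was 4 to 8, against 7. Leaving out each library in turn gave 4 to 8 lower collagen genes, with 4 without cRGC replicate 1. Over the 43 named genes, 638 values were computed under alternatives, of which 591 kept their direction and their side of the threshold, 33 kept the direction but lost the call, 2 gained one and 12 changed sign.

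With an absolute log2 fold change above 1 as a further condition, 5 modification and folding genes were higher, against 9. In the same list, 0 to 1 genes were lower when a library was left out (Plod3 without iRGC replicate 1, P4ha3 without iRGC replicate 2), and 1 was with iRGC replicate 3 alone. In the list for export, processing and crosslinking, the call of Pcolce2 was lost, which left 0 lower genes, with upper quartile factors, with no filter on low counts, with iRGC replicate 3 alone, with an adjusted p under 0.05, and when a library was left out (0 to 1). For receptors, 1 gene, Adgrg1, was lower with DESeq2's test, with at least 10 counts in every library and with protein-coding genes alone, and 0 to 1 when a library was left out.

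Log2 fold changes that changed sign were those of Col15a1 with iRGC replicate 3 alone (-0.22), of Col5a2 (-0.0018) and Col9a2 (-0.016) in that fit, and of Col9a3 with limma voom (-0.054). When a library was left out, the log2 fold change went from -0.040 (without cRGC replicate 3) to 1.32 for Col1a1, from -0.11 (without iRGC replicate 2) to 0.35 for Col5a2, from -0.056 (without iRGC replicate 3) to 0.28 for Col6a1, from -0.081 (without iRGC replicate 2) to 0.14 for Col9a2, which was -0.020 without cRGC replicate 3, and from -0.48 (without iRGC replicate 3) to 0.37 for Col9a3, which was -0.11 without cRGC replicate 3. Apart from Col15a1 these genes had no call with all libraries. The cause was not tested.

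The replicate numbers did not pair the libraries, since same-numbered iRGC and cRGC libraries had correlations of their deviations of -0.012, -0.024 and -0.055. With the replicate number as a block, 12 collagen genes were higher and 6 were lower, Col6a6, Itga1 and Pcolce2 lost their calls, so that 2 receptors were higher and 0 genes for export, processing and crosslinking were lower, and Col9a3 changed sign (-0.063). Library totals in place of TMM factors moved every log2 difference by 0.20 towards iRGCs, and the sum of collagen VI then went from -0.08 to 0.12. At this depth and with 3 libraries a side, a small difference in a collagen gene with few reads could not be detected.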
